A study of Mus musculus with 24 samples.

Results

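The retinoid metabolism genes are 9 genes that make, carry, sense or break down retinoic acid: Rdh10, Adh7, Adh1, Aldh1a1, Aldh1a2, Aldh1a3, Crabp2, Cyp26b1 and Rarb. They were found by gene name on a 2-colour microarray on which 20541 genes were tested, and 15 of its 41174 probes name them. All 9 were tested, so none was lost to the filter on dim probes. The set was proposed with earlier results of these data known, in which Aldh1a3 and Adh7 led the difference between the genotypes under mixed reflux. The members were thus chosen by those measured values, and every comparison that holds a mixed reflux group is given here as a description, without a test.

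The samples were oesophagi of male C57BL/6J mice aged 12 weeks, 3 arrays in each of 8 groups. Wild-type mice, and Nrf2-/- mice that lack the transcription factor encoded by Nfe2l2 (Nrf2-null below), either had no reflux or had reflux for 4 weeks, of gastric, duodenal or both kinds of contents (mixed). The series design states the comparison of the genotypes within each reflux condition, and the groups also allow each reflux type to be set against no reflux within a genotype. The labels disagree on the tissue: the source name reads oesophageal epithelium in all 8 groups, while the tissue entry reads whole oesophagus in 7 and oesophageal epithelium for Nrf2-null mixed reflux. If the tissue entry is right, genotype and tissue cannot be told apart under mixed reflux. Muscle markers, given below, read above the reference on every array. By their labels, arrays within a group are biological replicates.

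Retinol reaches epithelia in the blood and is oxidised to retinal by membrane-bound retinol dehydrogenases such as Rdh10 and by cytosolic alcohol dehydrogenases such as Adh1 and Adh7. The retinal dehydrogenases of the Aldh1a family then oxidise retinal irreversibly to retinoic acid. Crabp2 carries retinoic acid to nuclear receptors, of which Rarb is both a member and a classic target, and Cyp26 enzymes hydroxylate and so inactivate it. In stratified squamous epithelia such as the oesophageal lining, retinoic acid is known to restrain keratinisation. Adh7 is best known from the epithelium of the upper digestive tract.

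Promoter sequences from RefSeq (build GRCm38.p6) were held for 6 of the 9 genes, with 7 start sites, since Aldh1a1 has 2. The 250 bases before each start site were searched on both strands for the core of the antioxidant response element, TGACNNNGC, which Nrf2 binds. They were also searched for a single form of retinoic acid response element, the repeat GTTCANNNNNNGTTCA. Of all 32851 promoters of that length, 10.2% held the antioxidant core and 0.067% (22 promoters) the repeat. Among the 7 start sites the repeat was found once, in Rarb, and the antioxidant core once, in Aldh1a2, and no promoter held both. Of these, 4 are printed with any match in capitals: Rarb and Aldh1a2 because they hold a match, and Adh7 and Aldh1a1 because their levels changed in the most comparisons below. They lie at chr14:16575477-16575726 (minus strand, Rarb), chr9:71215539-71215788 (Aldh1a2), chr3:138217523-138217772 (Adh7) and chr19:20601718-20601967 (Aldh1a1, the start site nearer to the gene's end), the other 3 on the plus strand.
Rarb: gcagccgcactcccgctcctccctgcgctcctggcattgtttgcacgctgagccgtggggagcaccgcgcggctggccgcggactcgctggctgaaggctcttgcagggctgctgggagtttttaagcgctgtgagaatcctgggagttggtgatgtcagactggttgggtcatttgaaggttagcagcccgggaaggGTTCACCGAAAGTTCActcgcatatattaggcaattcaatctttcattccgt
Aldh1a2: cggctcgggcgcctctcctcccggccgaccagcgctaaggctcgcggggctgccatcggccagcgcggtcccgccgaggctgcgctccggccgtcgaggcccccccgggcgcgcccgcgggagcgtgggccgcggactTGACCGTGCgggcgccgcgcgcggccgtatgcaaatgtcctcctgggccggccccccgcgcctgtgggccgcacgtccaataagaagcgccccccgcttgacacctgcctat
Adh7: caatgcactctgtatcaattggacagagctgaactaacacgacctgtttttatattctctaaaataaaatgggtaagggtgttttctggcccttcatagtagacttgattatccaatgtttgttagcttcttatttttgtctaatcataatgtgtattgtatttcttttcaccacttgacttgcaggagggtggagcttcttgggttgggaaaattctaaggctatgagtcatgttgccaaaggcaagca
Aldh1a1: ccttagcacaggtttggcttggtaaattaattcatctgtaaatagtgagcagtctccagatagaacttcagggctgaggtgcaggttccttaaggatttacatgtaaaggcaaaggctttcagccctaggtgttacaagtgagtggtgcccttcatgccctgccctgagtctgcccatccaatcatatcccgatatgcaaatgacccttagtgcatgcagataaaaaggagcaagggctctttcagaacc
The Rarb repeat starts 52 bases before the start site and the Aldh1a2 match 112 bases before it. A match is only a run of letters, and no binding was measured here. Other forms of retinoic acid response element were not searched, so a promoter without a match may hold one. Nothing is read from the match in Rarb, a classic target of retinoic acid.

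Every level below is a log2 ratio of the sample's Cy5 signal to a common Cy3 reference, a commercial mouse RNA pooled from 11 cell lines, so levels are compared between samples and not between genes. A difference is a log2 difference between group means with the standard error of the fit after ±, and a gene is called changed when its Benjamini-Hochberg adjusted p over all tested genes was under 0.05 in limma. The 3 arrays of Nrf2-null mixed reflux differed by 0.502 to 0.676 of the variance seen between repeat spots, against 1.31 to 65.8 for the 21 pairs within other groups, and were counted as 1 sample. The lowest of those pairs were 2 arrays of wild type with duodenal reflux, whose 3 arrays were kept as 3 samples. Also close were Nrf2-null duodenal replicates 1 and 3 (2.06) and wild type without reflux replicates 1 and 2 (2.57). These were kept as separate samples too, and no alternative averaged them. The targeted gene Nfe2l2 ranged from 1.45 to 2.18 in wild type (10 arrays with a value) and from -3.81 to -2.83 in Nrf2-null (12 arrays). Its target Nqo1 ranged from 1.79 to 2.85 and from -0.88 to -0.42 on as many arrays. Median Cy5 signal was 81.8 to 249 intensity units. On wild type without reflux replicates 1 and 2, 13% and 11.8% of spots carried an outlier flag, and 4 members and 1 member had no value there. Nrf2-null gastric replicate 1 and Nrf2-null duodenal replicate 2 had the lowest Cy5 over Cy3 of their scan day, 0.318 and 0.373, and are the 2 arrays called low in Cy5 below. Wild type without reflux replicate 2, of another scan day, was as low (0.333) and held the lowest median Cy5, 81.8.

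Tissue markers were read beside the members. Of 10 squamous epithelium markers 9 were tested, and their mean lay above the reference on every array, from 3.03 to 6.47. Of 8 neutrophil markers 7 were tested, and their mean was 0.21 to 1.01 in wild type and 1.36 to 1.54 in Nrf2-null without reflux, 3.20 to 3.24 and 4.24 to 4.53 with duodenal reflux, 0.87 to 1.4 and 1.75 to 2.57 with gastric reflux, and 1.98 to 3.5 and 4.65 to 4.73 with mixed reflux. S100a8, S100a9 and Cxcr2 were well above background on all 24 arrays, Retnlg and Csf3r on 12. Of 8 liver markers 6 were tested, and their mean was 0.03 to 0.29 on the 6 arrays without reflux, 2.12 to 3.69 with gastric reflux in either genotype, 2.49 to 2.56 with duodenal reflux in wild type and 0.44 to 3.33 in Nrf2-null. All 8 smooth muscle markers were tested, and their mean in wild type was 1.96 to 2.6 without reflux, 2.85 to 3.61 with gastric, 1.34 to 1.55 with duodenal and 1.66 to 2.65 with mixed reflux, and in Nrf2-null mice 2.2 to 2.44, 1.85 to 2.77, 0.81 to 2.1 and 1.01 to 1.07. The mean of 10 skeletal muscle markers ranged from 1.15 to 5.87 over all arrays. In whole tissue, fewer cells of a type and less RNA per cell cannot be told apart.

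In these oesophagi the members moved mainly with duodenal reflux. Aldh1a3 rose and Adh7, Aldh1a1 and Rarb fell in both genotypes, by amounts given below. Rdh10 rose in wild type on its brightest probe, and in both genotypes when all its probes were averaged. Nrf2-null mice had less Adh7 under duodenal reflux and less Aldh1a1 and Cyp26b1 under gastric reflux than wild type. Adh1, Aldh1a2 and Crabp2 passed no test when all arrays were used and each gene was read from its brightest probe.

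Rdh10, the membrane-bound enzyme that catalyses most retinol oxidation in the embryo, was higher under duodenal reflux in wild type. Its brightest probe (chromosome 1, 16123127 to 16123186, mm9, plus strand) read -1.45, -2.16 and -1.82 without reflux, -0.94, -1.36 and -1.40 with gastric reflux, and -0.73, -0.86 and -0.84 with duodenal reflux. In Nrf2-null mice it read -1.21, -1.22 and -1.25 without reflux, -2.22, -1.08 and -1.23 with gastric reflux, and -0.58, -1.39 and -0.45 with duodenal reflux. In wild type the duodenal arrays lay above all arrays without reflux, while in Nrf2-null mice the 2 groups overlapped through duodenal replicate 2, one of the arrays of low Cy5.

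The wild-type difference of Rdh10 with duodenal reflux was 1.00 ± 0.28 (2.0-fold, limma adjusted p = 0.0315), and the Nrf2-null difference 0.42 ± 0.28 (limma adjusted p = 0.307). The wild-type call was lost in 10 of 21 alternatives, with adjusted p from 0.00117 to 1. It was lost without wild type without reflux replicate 2 (0.82) or 3 (0.99) and without any one wild-type duodenal array (0.96, 1.02 and 1.01). Averaged with the 2 other probes of the gene, the difference was 1.07 ± 0.25 in wild type and 0.93 ± 0.25 in Nrf2-null, and both passed (limma adjusted p = 0.0124 and 0.0163).

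Adh7, the alcohol dehydrogenase of the upper digestive tract that oxidises retinol, was lower under duodenal reflux in both genotypes. Its probe lies on chromosome 3 at 137894495 to 137894554 (mm9, plus strand). In wild type it read 6.14 and 5.98 on the 2 arrays without reflux that measured it, 6.14, 4.78 and 5.31 with gastric reflux, and 4.59, 4.78 and 4.70 with duodenal reflux. Without Nrf2 it read 5.29, 5.35 and 5.21 without reflux, 4.49, 5.24 and 4.91 with gastric reflux, and 3.79, 2.87 and 3.59 with duodenal reflux. The Nrf2-null duodenal arrays lay below all arrays of the 5 other groups without mixed reflux, and the genotypes did not overlap without reflux or with duodenal reflux.

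The Adh7 difference with duodenal reflux was -1.37 ± 0.35 in wild type (limma adjusted p = 0.0197) and -1.87 ± 0.31 in Nrf2-null mice (3.65-fold, limma adjusted p = 0.000777). The genotypes did not differ in it by the interaction test (-0.50 ± 0.46, limma adjusted p = 0.611). Nrf2-null mice had less Adh7 under duodenal reflux with a difference of -1.27 ± 0.31 (2.42-fold, limma adjusted p = 0.0457), and averaged over no, gastric and duodenal reflux with a difference of -0.86 ± 0.19 (1.81-fold, limma adjusted p = 0.0145). The single difference without reflux, -0.77 ± 0.35, did not pass (limma adjusted p = 0.62).

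The Adh7 calls were not equally firm. The genotype call under duodenal reflux was lost in 17 of 23 alternatives, with adjusted p from 0.0207 to 0.885 and differences from -1.63 to -1.0. It was lost without any one array of wild-type duodenal reflux (-1.33, -1.23 and -1.27) and without Nrf2-null duodenal replicate 2 (-1.0) or 3 (-1.36). The wild-type duodenal call was lost in 9 of 21, with adjusted p from 0.000461 to 1, also without wild type without reflux replicate 2 (-1.29) or 3 (-1.45), or any one wild-type duodenal array (-1.31, -1.41 and -1.37). The Nrf2-null duodenal call was lost in 2 of 23, both of them for scan day: it was -1.79 ± 0.47 with scan day as a block and -1.79 ± 0.41 within 1 day, with adjusted p from 0.000214 to 0.0722 over all 23.

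Adh1, the cytosolic class of alcohol dehydrogenase abundant in liver, passed no test on its brightest probe. That probe (chromosome 3, 137952821 to 137952880, mm9, plus strand) read 4.36 on the single array of wild type without reflux that measured it, 4.60, 4.36 and 4.41 with gastric reflux and 3.77, 3.49 and 3.71 with duodenal reflux. In Nrf2-null mice it read 4.35, 4.37 and 4.76 without reflux, 3.72, 4.90 and 4.79 with gastric reflux, and 3.99, 2.39 and 3.91 with duodenal reflux. Every duodenal array lay below every array without reflux of its own genotype. The differences were -0.71 ± 0.51 in wild type (limma adjusted p = 0.425) and -1.06 ± 0.36 in Nrf2-null (limma adjusted p = 0.0502). Another Adh1 probe, whose listed range starts at 137952851, was measured on all 24 arrays and read 4.63, 4.59 and 4.07 in wild type without reflux and 3.11, 3.16 and 3.21 with duodenal reflux. Those 2 groups did not overlap on it. Without Nrf2 it read 4.21, 4.51 and 4.67 without reflux and 3.40, 1.47 and 3.31 with duodenal reflux, and averaged over both probes that difference was -1.40 ± 0.43 and passed (limma adjusted p = 0.0323).

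Aldh1a3, the retinal dehydrogenase typical of stratified and glandular epithelia, varied most of the 9 genes, with 8 group means spanning 6.58. Its probe lies on chromosome 7 at 73535785 to 73535844 (mm9, minus strand). In wild-type mice it read 0.15, 0.84 and -0.02 without reflux, 1.87, 2.61 and 2.61 with gastric reflux, and 3.53, 3.89 and 3.71 with duodenal reflux. In Nrf2-null mice the 3 arrays read 0.36, 1.43 and 1.97 without reflux, 1.22, 0.53 and 1.32 with gastric reflux, and 5.78, 7.14 and 5.94 with duodenal reflux. Every duodenal reflux array of either genotype lay above every array without reflux or with gastric reflux, and the genotypes did not overlap under duodenal reflux.

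Aldh1a3 was higher with duodenal than without reflux by 3.39 ± 0.77 in wild type (limma adjusted p = 0.0104) and by 5.04 ± 0.77 in Nrf2-null mice (32.9-fold, limma adjusted p = 0.000362). The interaction, the second of these minus the first, was 1.65 ± 1.09 and did not pass (limma adjusted p = 0.494). The difference between the genotypes under duodenal reflux was 2.58 ± 0.77 and did not pass either (limma adjusted p = 0.0919), nor did the wild-type difference with gastric reflux, 2.04 ± 0.77 (limma adjusted p = 0.135). Another Aldh1a3 probe, at 73553907 to 73553966 on the same chromosome, was dim and well above background on 9 arrays, among them all 6 of Nrf2-null duodenal and mixed reflux, where it read 1.54 to 1.88 and 2.77 to 2.85. With both probes averaged, the genotype difference under duodenal reflux was 1.93 ± 0.46 and passed (limma adjusted p = 0.0418). It passed too without wild-type mixed reflux replicate 2, an array that enters this comparison only through the shared spread (2.58 ± 0.40, limma adjusted p = 0.00294), and over all alternatives the adjusted p ran from 0.00294 to 0.948.

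The Aldh1a3 calls were lost with scan day as a block. The wild-type call was also lost with the 3 close duodenal arrays counted as 1 sample, and the Nrf2-null call within 1 scan day. With scan day as a block, the Aldh1a3 difference with duodenal reflux was 2.66 ± 1.65 in wild type and 4.32 ± 1.13 in Nrf2-null. Within the one scan day that held both Nrf2-null groups, 3 arrays against 1, it was 4.32 ± 1.28. Over all alternatives the adjusted p ran from 7.57e-05 to 1 in wild type and from 9.16e-05 to 0.15 in Nrf2-null. Neutrophil markers were high with Aldh1a3 under duodenal reflux, but with gastric reflux they were higher in Nrf2-null mice (1.75 to 2.57, against 0.87 to 1.4 in wild type) while Aldh1a3 was lower there (0.53 to 1.32, against 1.87 to 2.61). Both were high on wild-type mixed reflux replicate 2, which read 4.69 for Aldh1a3 and 3.5 for the neutrophil markers. That array was also the highest of its group for adipocyte (4.6), skeletal muscle (4.73), endothelial (3.63), macrophage (2.25) and liver markers (2.18). The part of neutrophils or of these other tissues in the Aldh1a3 result was not tested.

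**Figure D1:**
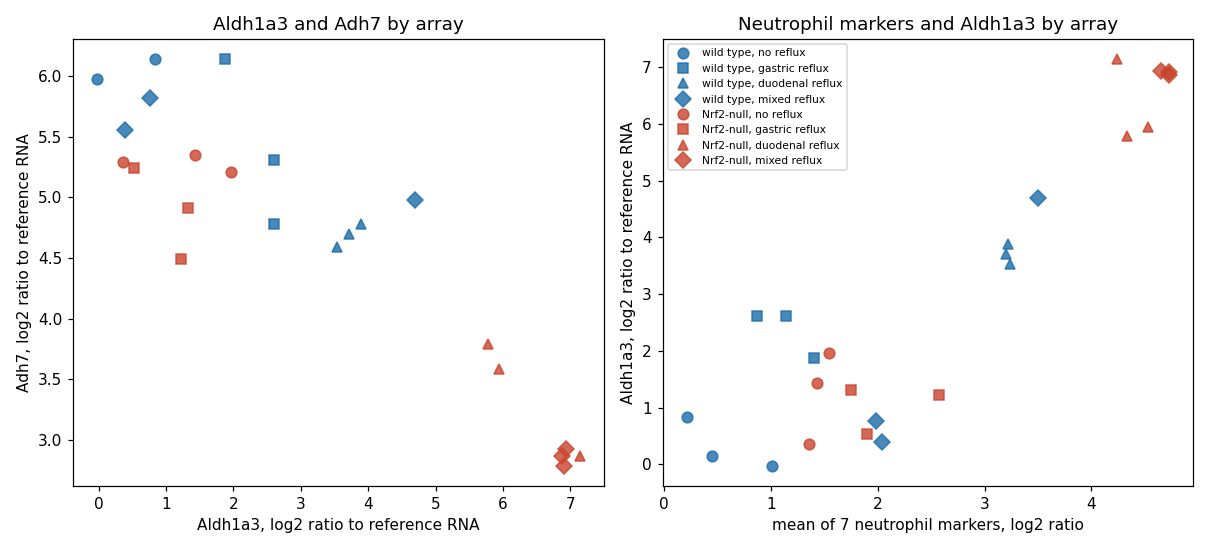
Levels on each array as log2 ratios to the reference RNA, by genotype (colour) and reflux type (symbol): Aldh1a3 (x axis) and Adh7 (y axis) on the left (23 arrays), and the mean of 7 neutrophil markers (x axis) and Aldh1a3 (y axis) on the right (24 arrays). The 6 arrays of Nrf2-null mice with duodenal or mixed reflux hold the highest Aldh1a3 (5.78 to 7.14) and the lowest Adh7 (2.79 to 3.79).

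Aldh1a1, the cytosolic retinal dehydrogenase, was lower under duodenal reflux in both genotypes and lower in Nrf2-null mice under gastric reflux. Its only probe lies on chromosome 19 at 20717764 to 20717823 (mm9, plus strand). In wild type it read 1.98 and 1.58 on the 2 measured arrays without reflux, 2.00, 2.84 and 2.76 with gastric reflux, and 0.39, 0.50 and 0.41 with duodenal reflux. Without Nrf2 it read 1.20, 1.22 and 1.55 without reflux, 1.24, 1.41 and 1.41 with gastric reflux, and 0.45, 0.27 and 0.42 with duodenal reflux. The 6 duodenal arrays lay together below all 11 arrays of no and gastric reflux that measured the gene, and the genotypes overlapped only there.

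Aldh1a1 fell with duodenal reflux with a difference of -1.34 ± 0.21 in wild type (2.53-fold, limma adjusted p = 0.00104) and with a difference of -0.94 ± 0.19 in Nrf2-null mice (1.92-fold, limma adjusted p = 0.0031). Under gastric reflux Nrf2-null mice had less of it with a difference of -1.18 ± 0.19 (2.27-fold, limma adjusted p = 0.00216), and so they did averaged over the 3 conditions (-0.56 ± 0.11, limma adjusted p = 0.0106). Under duodenal reflux the genotype difference was -0.05 ± 0.19 and did not pass (limma adjusted p = 0.913). The wild-type difference with gastric reflux was 0.76 ± 0.21 and did not pass (limma adjusted p = 0.0559); without wild-type gastric replicate 1 it was 1.02 and did (adjusted p 0.000836). The Nrf2-null duodenal call was kept in all 23 alternatives, from -1.53 to -0.83. The wild-type duodenal call was lost in 3 of 21 and the gastric genotype call in 2 of 21, in each case also with scan day as a block (-1.48 ± 0.38 and -1.52 ± 0.33), with adjusted p from 0.000217 to 0.466 and from 1.98e-05 to 0.371. Liver markers read 2.49 to 2.56 on the wild-type duodenal arrays, where Aldh1a1 was low, and 2.12 to 3.69 on the wild-type gastric arrays, where it was high. In Nrf2-null mice the liver markers read 0.44 to 3.33 with duodenal and 2.46 to 3.48 with gastric reflux. The smooth muscle markers followed Aldh1a1 in wild type, highest with gastric reflux (2.85 to 3.61) and lowest with duodenal reflux (1.34 to 1.55). On the Nrf2-null duodenal arrays they read 0.81 to 2.1, below the 2.2 to 2.44 without reflux. On the Nrf2-null gastric arrays they read 1.85 to 2.77, below wild type, as Aldh1a1 did. Fibroblast (-2.2 to -0.43 against -0.23 to 0.24) and endothelial markers (2.15 to 2.94 against 3.68 to 4.02) were lower there too. Squamous, intestinal and neutrophil markers were higher there. The part of liver or of these other tissues in the Aldh1a1 result was not tested.

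Aldh1a2, the retinal dehydrogenase of mesenchyme and mesothelium, was called in no comparison. Its probe (chromosome 9, 71143931 to 71143990, mm9, plus strand) ranged from 2.22 to 2.58 in wild type without reflux and from 1.96 to 2.50 with duodenal reflux, and from 2.46 to 3.29 and 0.91 to 2.81 in Nrf2-null mice. Neighbouring groups in its order of means overlapped throughout, and the span of the group means was 0.93, the narrowest of the 9 genes. The lowest value, 0.91, was on Nrf2-null duodenal replicate 2, an array of low Cy5.

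Crabp2, which delivers retinoic acid to its receptors, gave a result that 2 arrays decided. Its probe (chromosome 3, 87752682 to 87752741, mm9, plus strand) read 4.40, 4.08 and 4.8 in wild type without reflux, 4.18, 3.51 and 3.53 with gastric reflux and 4.95, 4.98 and 5.01 with duodenal reflux. In Nrf2-null mice it read 4.59, 4.75 and 4.46 without reflux, 1.80, 5.44 and 4.84 with gastric reflux, and 5.0, 2.18 and 4.99 with duodenal reflux. The values 1.80 and 2.18 belong to the 2 arrays of low Cy5, and the other 2 arrays of each of those groups lay above all 3 without reflux. With all arrays, Crabp2 was called in no comparison, and the gastric genotype difference was 0.29 ± 0.74. Without those 2 arrays, an alternative chosen after seeing the data, it was 1.40 ± 0.23 (limma adjusted p = 0.00186), and averaged over the 3 conditions the genotype difference turned from -0.16 ± 0.43 to 0.53 ± 0.13 (limma adjusted p = 0.015). Without them the test also passed for the wild-type difference with gastric reflux (-0.69 ± 0.21, limma adjusted p = 0.0374) and for the interaction with gastric reflux (1.23 ± 0.31, limma adjusted p = 0.034). Without Nrf2-null gastric replicate 1 alone the gastric genotype difference was 1.40 ± 0.57, and its adjusted p over all alternatives ran from 0.00186 to 0.948.

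Cyp26b1, which breaks down retinoic acid, was lower in Nrf2-null mice under gastric reflux. Its probe (chromosome 6, 84521952 to 84522011, mm9, minus strand) was measured on 16 of 24 arrays, because the scanner software flagged its spot on the others, among them all 3 of wild type with duodenal reflux. It read 3.79 and 3.42 in wild type without reflux, 4.14, 3.59 and 3.57 with gastric reflux, and, in Nrf2-null mice, 3.39 on 1 array without reflux, 3.18, 2.53 and 3.08 with gastric reflux and 2.93, 2.54 and 3.15 with duodenal reflux. The genotypes did not overlap under gastric reflux, where the difference was -0.84 ± 0.24 (1.79-fold, limma adjusted p = 0.0413).

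That Cyp26b1 call was lost in 11 of 20 alternatives, with adjusted p from 0.0181 to 0.205 and differences from -1.26 to -0.64. It was lost without any one wild-type gastric array (-0.65, -0.92 and -0.94) and without Nrf2-null gastric replicate 2 (-0.64) or 3 (-0.91). With flagged spots kept, wild-type duodenal reflux read 3.87, 3.72 and 3.82, above all 3 Nrf2-null duodenal arrays. The genotype difference was then -0.84 ± 0.22 with gastric reflux, -0.93 ± 0.22 with duodenal reflux and -0.75 ± 0.13 over the 3 conditions, and each passed (limma adjusted p = 0.0181, 0.0399 and 0.00293).

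Rarb, the receptor whose promoter holds the printed repeat, was lower with duodenal reflux in both genotypes. Its probe (chromosome 14, 17263511 to 17263570, mm9, minus strand) is spotted 10 times on each array, and the mean of its spots read 1.63, 1.63 and 1.90 in wild type without reflux, 0.83, 2.24 and 2.16 with gastric reflux and 0.57, 0.69 and 0.73 with duodenal reflux. Without Nrf2 it read 1.57, 1.92 and 1.81 without reflux, 1.57, 0.82 and 1.13 with gastric reflux and 0.95, 0.22 and 1.05 with duodenal reflux. Every duodenal array lay below every array without reflux. On the 3 wild-type gastric arrays, where replicate 1 was the lowest for Rarb, the skeletal muscle markers read 1.15, 5.24 and 5.17 and the smooth muscle markers 2.85, 3.61 and 3.51. The smooth muscle markers were also lower with duodenal reflux than without reflux in both genotypes, but the skeletal muscle markers were higher. In wild type the skeletal muscle markers read 3.46 to 3.53 with duodenal reflux against 1.24 to 2.15 without. In Nrf2-null mice they read 3.7 to 4.29 against 2.41 to 3.51. The part of muscle in the Rarb result was not tested.

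The Rarb difference with duodenal reflux was -1.05 ± 0.30 in wild type (2.08-fold, limma adjusted p = 0.0349) and -1.03 ± 0.30 in Nrf2-null mice (2.04-fold, limma adjusted p = 0.0255), and the genotype difference there, 0.08 ± 0.30, did not pass (limma adjusted p = 0.92). The wild-type call was lost in 12 of 21 alternatives, with adjusted p from 0.000559 to 1, and in each fit that left out 1 array of either group (-1.10 to -0.96). The Nrf2-null call was lost in 8 of 23, with adjusted p from 0.0139 to 0.49, also without Nrf2-null duodenal replicate 2 (-0.77) or Nrf2-null without reflux replicate 2 (-0.95) or 3 (-1.01). With local backgrounds as read, the wild-type difference was -0.23 ± 0.36.

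**Figure D2:**
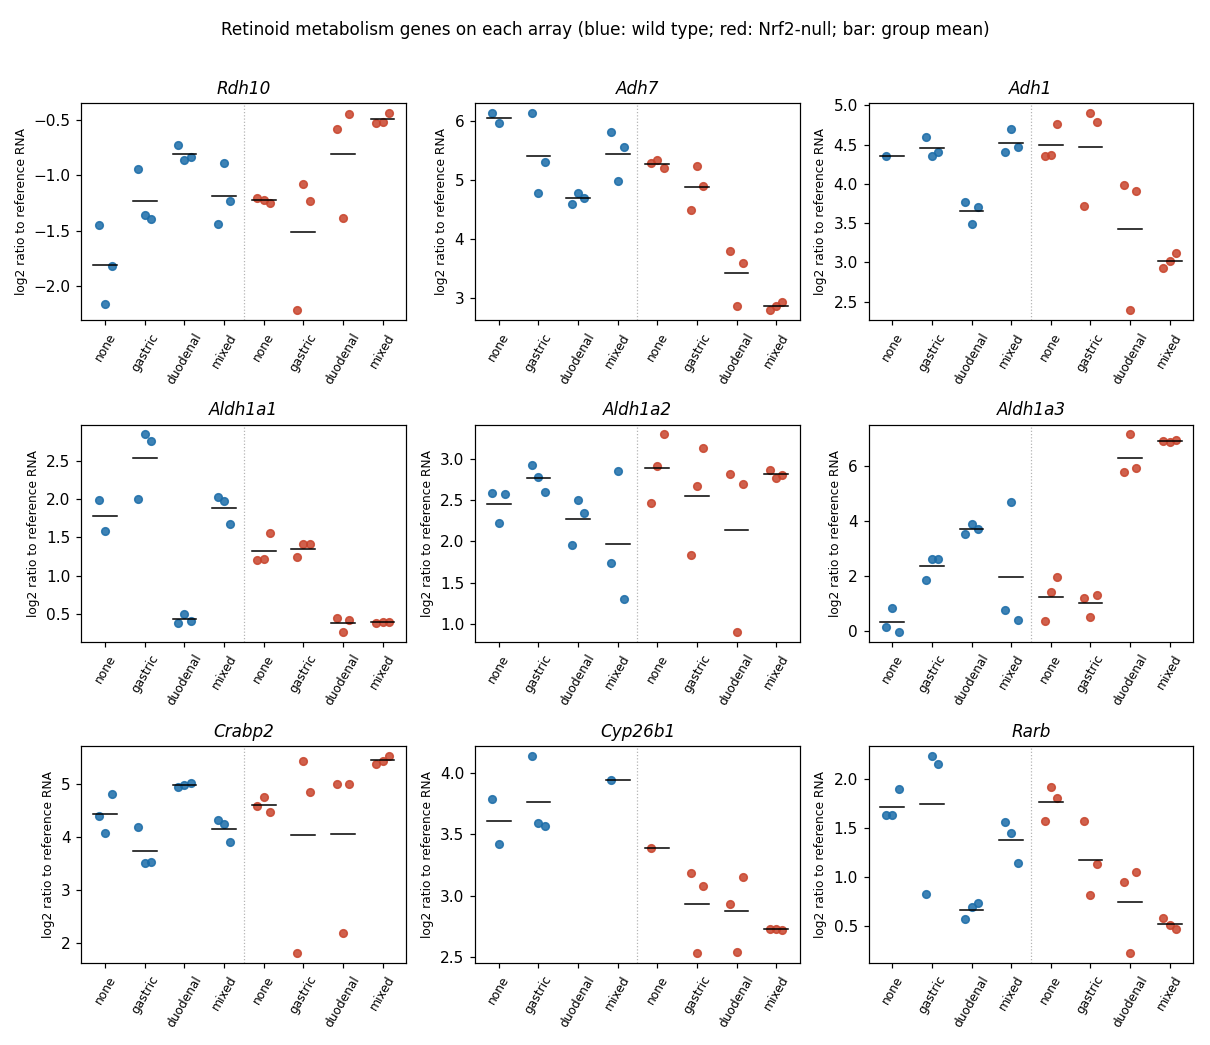
Level of each of the 9 genes on each array, as a log2 ratio to the reference RNA, in the 4 reflux conditions of wild type (blue) and Nrf2-null (red). Bars are group means, flagged spots are left out, and the 3 Nrf2-null mixed reflux points count as 1 sample. Aldh1a3 spans 6.58 between its lowest and highest group mean, Adh7 3.20 and Aldh1a1 2.15.

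Read by comparison, duodenal reflux held most of the calls. In wild type, 5 of the 8 measured members passed, against 10.3% of all tested genes: Aldh1a3 and Rdh10 were higher, and Adh7, Aldh1a1 and Rarb lower. The median difference of all 8 measured members, called or not, was -0.45, against 0.08 over all tested genes. In Nrf2-null mice 4 of 9 passed, against 19.8% of all tested genes: Aldh1a3 was higher, and Adh7, Aldh1a1 and Rarb lower. Here the members' median was -0.75, against 0.08 over all tested genes. Wild-type arrays without reflux and with duodenal reflux shared no scan day or slide, so reflux and scan day or slide cannot be told apart within wild type, and a fit with scan day as a block reads that comparison through the other groups. Each comparison had its own control group, so the calls of the 4 genes in both compare different arrays. They are not independent, since both come from the same fit with a spread shared over all 8 groups. Both also set duodenal arrays of scan day 3 against control arrays mostly of earlier days. With scan day as a block, 0 members were called in wild type and 1, Aldh1a1, in Nrf2-null.

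Gastric reflux gave no call among the members. In wild type 0 of 9 passed in limma, 2 had an unadjusted p under 0.05, and 4.14% of all tested genes were called. In Nrf2-null mice 0 of 9 passed, 0 had an unadjusted p under 0.05, and 0.579% of all tested genes were called.

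Between the genotypes, no member was called without reflux in limma (0 of 9, 2 with an unadjusted p under 0.05, against 0.17% of all tested genes). Under gastric reflux 2 of 9 were called, Aldh1a1 and Cyp26b1, both lower in Nrf2-null mice, against 17.6% of all tested genes, so the members' share lies near that background. The wild-type and Nrf2-null gastric reflux arrays shared no scan day or slide. Genotype and scan day or slide thus cannot be told apart there, for the members or any other gene. Under duodenal reflux 1 of 8 was called, Adh7, lower in Nrf2-null mice, against 1.89% of all tested genes. Averaged over the 3 conditions 2 of 8 were called, Adh7 and Aldh1a1, both lower in Nrf2-null mice, against 7.12% of all tested genes. No member was called in the test of whether the genotype effect differed between gastric and no reflux (0 of 9, 2 with an unadjusted p under 0.05, against 1.78% of all tested genes) or between duodenal and no reflux (0 of 8, 0 with an unadjusted p under 0.05, against 0.336%).

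**Figure D3:**
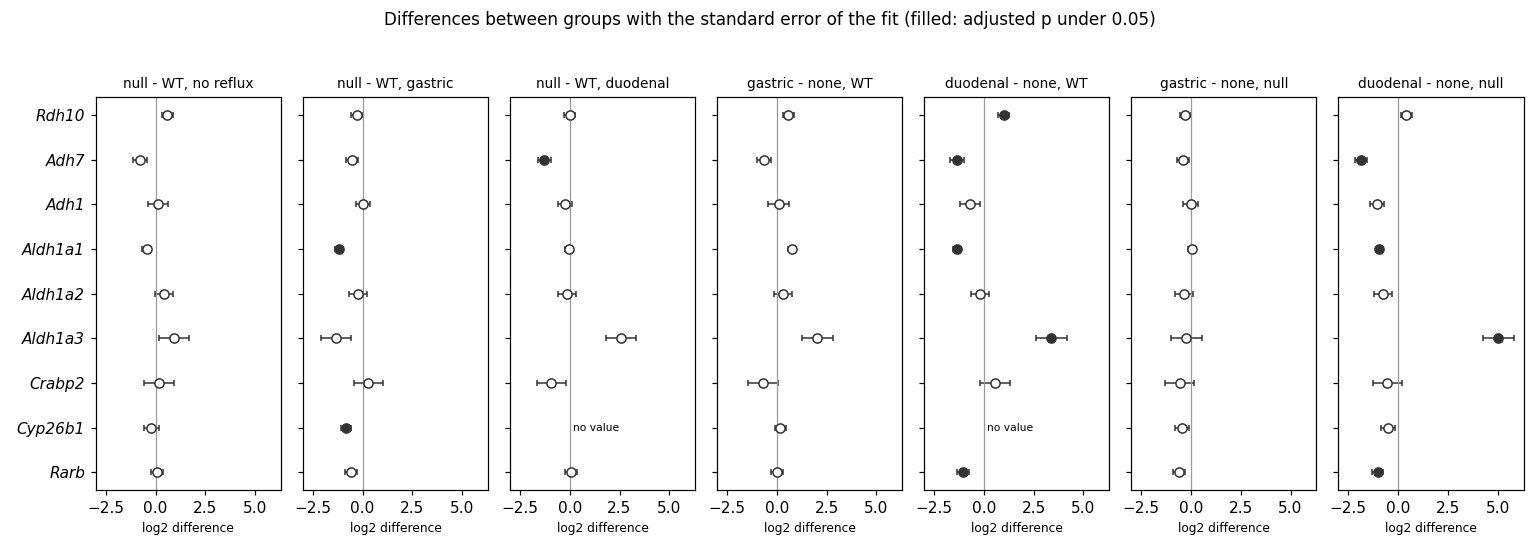
Log2 differences of the 9 genes in 7 comparisons, with the standard error of the fit as bars. Filled points have an adjusted p under 0.05 over all tested genes in limma. Most filled points lie in the 2 comparisons of duodenal with no reflux, 5 in wild type and 4 in Nrf2-null, and Cyp26b1 has no value where wild-type duodenal reflux enters.

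Mixed reflux is described without a test. Aldh1a3 read 0.77, 4.69 and 0.40 in wild type and 6.91, 6.87 and 6.93 on the 3 arrays of the single Nrf2-null sample. Adh7 read 5.82, 4.98 and 5.56 in wild type against 2.79, 2.87 and 2.93. On both genes the genotypes did not overlap, and wild-type replicate 2 stood nearest to the Nrf2-null arrays.

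The difference was 4.95 ± 1.09 for Aldh1a3 (30.9-fold) and -2.59 ± 0.44 for Adh7 (6.01-fold). Aldh1a1 read 2.02, 1.97 and 1.67 in wild type against 0.38, 0.40 and 0.40, and Adh1 read 4.40, 4.70 and 4.47 against 2.93, 3.02 and 3.12. Neither gene's groups overlapped, and their differences were -1.49 ± 0.27 and -1.50 ± 0.51. In all, 6 of 9 members differed by more than 2-fold, against 10.1% of all tested genes, a comparison from which nothing is read because it chose the members. The other differences beyond 2-fold were those of Crabp2 (1.30 ± 1.04) and Cyp26b1 (-1.21 ± 0.42, on 1 wild-type array). Rarb (-0.86 ± 0.43), Aldh1a2 (0.85 ± 0.64) and Rdh10 (0.69 ± 0.40) fell short of 2-fold. Of the members beyond 2-fold Cyp26b1 lay nearest to that boundary, and of those short of it Rarb.

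Against no reflux of the same genotype, mixed reflux left wild-type Adh7 at -0.61 ± 0.35 and Aldh1a1 at 0.11 ± 0.21, while the Nrf2-null sample stood at -2.42 ± 0.44 and -0.93 ± 0.27. Aldh1a3 differed by 1.63 ± 0.77 in wild type and 5.65 ± 1.09 in Nrf2-null. The Nrf2-null mixed sample therefore lay with the Nrf2-null duodenal arrays on these 3 genes: 6.90 against 6.29 for Aldh1a3, 2.86 against 3.41 for Adh7 and 0.39 against 0.38 for Aldh1a1. On Aldh1a1 wild-type duodenal reflux lay beside them too (mean 0.43, arrays 0.39 to 0.50), but not on Aldh1a3 (3.71) or Adh7 (4.69). The neutrophil markers of Nrf2-null mixed and duodenal reflux lay side by side as well, at 4.65 to 4.73 and 4.24 to 4.53, and their part in these levels was not tested.

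Other genes of retinoid storage, oxidation, breakdown and response were read from a list of 58, of which 55 are on the array and 49 were tested. In all, 17 were called in at least 1 tested comparison. With duodenal reflux 8 of the 49 rose and 2 fell in Nrf2-null mice, against 19.8% of all tested genes called, and 3 rose and 1 fell in wild type, against 10.3%. With gastric reflux 2 rose in wild type, against 4.14% of all tested genes, and 0 were called in Nrf2-null, where 8 had an unadjusted p under 0.05 in limma and 0.579% of all tested genes were called. Between the genotypes, 4 were higher and 3 lower in Nrf2-null mice under gastric reflux (17.6% of all tested genes), 1 higher under duodenal reflux (1.89%) and 1 lower without reflux (0.17%). Averaged over the 3 conditions, 2 were higher and 3 lower (7.12%). These shares of the list lie near the background in most comparisons.

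Dgat1, an acyltransferase that can esterify retinol, rose with duodenal reflux by 1.05 ± 0.13 in Nrf2-null mice (limma adjusted p = 8.36e-05) and by 0.68 ± 0.13 in wild type (limma adjusted p = 0.00394). The Nrf2-null call was lost in 2 of 23 alternatives, with median centring (0.45 ± 0.27) and within scan day 3 (1.03 ± 0.22). The wild-type call was lost in 3 of 21, with local backgrounds as read (0.34 ± 0.14), with scan day as a block (0.59 ± 0.29) and with the 3 close duodenal arrays counted as 1 sample (0.68 ± 0.20). Gprc5a, known as a retinoic acid induced gene, rose with duodenal reflux by 1.44 ± 0.25 in Nrf2-null mice (limma adjusted p = 0.000947). It was higher there than in wild type under duodenal reflux by 1.04 ± 0.25 (limma adjusted p = 0.042), and by 0.63 ± 0.14 over the 3 conditions. The genotype call under duodenal reflux was lost without Nrf2-null duodenal replicate 2 (0.72) and without any one wild-type duodenal array (1.01 to 1.07).

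Adh4, an alcohol dehydrogenase active on retinol, rose with duodenal reflux by 1.59 ± 0.37 in Nrf2-null mice (limma adjusted p = 0.00645), where it read 0.03, 0.25 and 1.78 without reflux and 2.32, 2.45 and 2.05 with it. That call was lost in 4 of 22 alternatives: the difference was 0.5 ± 0.38 with scan day as a block, 0.5 ± 0.34 within scan day 3, 0.31 ± 0.59 with slide as a fixed block, and 1.59 ± 0.45 with only the compared groups fitted (limma adjusted p from 0.000264 to 0.711 over all 22). Its wild-type difference was 1.23 ± 0.37 (limma adjusted p = 0.0411), but -0.35 ± 0.55 with scan day as a block, and the call was lost without any one array of wild type without reflux (1.2 to 1.26) and without wild-type duodenal replicate 1 (1.1) or 3 (1.11). Rdh7, a microsomal retinol dehydrogenase, rose with gastric reflux in wild type by 1.81 ± 0.42 (limma adjusted p = 0.0291) and with duodenal reflux in Nrf2-null mice by 1.40 ± 0.42 (limma adjusted p = 0.0276). Its means were also higher where no call was made. They were 1.83 with gastric reflux against -0.06 without in Nrf2-null, and 0.94 with duodenal reflux against -0.03 without in wild type. In Nrf2-null duodenal reflux Rdh7 read 1.97, 0.12 and 1.94, and the liver markers 3.26, 0.44 and 3.33, so both were low on replicate 2. The gastric call of Rdh7 was lost without any one array of wild type without reflux (1.75 to 1.89) or without wild-type gastric replicate 2 (1.81), and the duodenal call without any one of 5 arrays (1.09 to 1.45). The part of liver tissue in the Rdh7 result was not tested.

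Akr1b8, an aldo-keto reductase of a family that turns retinal back to retinol, differed most between the genotypes of the 11 genes named here. It read -0.33 on the only measured array of wild type without reflux and -2.85, -2.85 and -2.99 in Nrf2-null mice, and 0.30, -0.76 and -0.08 against -2.72, -2.82 and -2.69 with gastric reflux. With duodenal reflux it read -1.10, -1.04 and -1.09 against -1.62, -0.92 and -1.52, so the genotypes overlapped only there. The genotype difference was -2.57 ± 0.31 without reflux (limma adjusted p = 0.00143), -2.56 ± 0.22 with gastric reflux (limma adjusted p = 2.03e-05) and -1.80 ± 0.15 over the 3 conditions (limma adjusted p = 5.11e-06). With duodenal reflux Akr1b8 rose in Nrf2-null mice by 1.54 ± 0.22 (limma adjusted p = 0.000297), and its genotype effect differed from that without reflux by 2.29 ± 0.38 (limma adjusted p = 0.026).

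Akr1b10, of the same family, was lower in Nrf2-null mice with gastric reflux (-0.97 ± 0.17, limma adjusted p = 0.00262) and over the 3 conditions (-0.62 ± 0.10, limma adjusted p = 0.0017). It fell with duodenal reflux in wild type (-1.01 ± 0.17, limma adjusted p = 0.00115) and in Nrf2-null mice (-0.56 ± 0.17, limma adjusted p = 0.0257), the last call being lost without any one array of either group (-0.58 to -0.54). Rbp2, the retinol-binding protein of absorptive epithelium, was higher in Nrf2-null mice with gastric reflux (1.03 ± 0.29, limma adjusted p = 0.0279) and rose in them with duodenal reflux (1.11 ± 0.29, limma adjusted p = 0.0163). On Rbp2 the 2 arrays of low Cy5 were the highest of their groups, 5.81 and 6.07, and without them the differences were 0.66 and 0.77. The gastric call was lost without Nrf2-null gastric replicate 1 or wild-type gastric replicate 2 (0.96) or 3 (1.04), and the duodenal call without Nrf2-null duodenal replicate 2 or Nrf2-null without reflux replicate 1 (1.09) or 2 (1.01).

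Another 4 genes were called in 1 comparison each. Rbp7, a retinol-binding protein, and Rdh12, a retinal reductase, were higher in Nrf2-null mice with gastric reflux, by 0.92 ± 0.27 and 0.84 ± 0.20 (limma adjusted p = 0.032 and 0.0129). Ncor1, a corepressor of retinoic acid receptors, was lower there with a difference of -1.01 ± 0.32 (limma adjusted p = 0.0425). The Rbp7 call was lost without wild-type gastric replicate 2 (0.50) or 3 (1.07) or Nrf2-null gastric replicate 2 (0.75), and the Rdh12 call without wild-type gastric replicate 2 (0.79) or 3 (0.77). The Ncor1 call was lost without any one wild-type gastric array (-1.09 to -0.91) or without Nrf2-null gastric replicate 2 (-0.59) or 3 (-1.06). Rxrg, a retinoid X receptor, rose with gastric reflux in wild type by 3.07 ± 0.80 (limma adjusted p = 0.0419), reading 2.40, 5.62 and 5.44. The mean of 10 skeletal muscle markers on the same arrays was 1.15, 5.24 and 5.17, and its part in the Rxrg result was not tested. The Rxrg call was lost without any one array of wild type without reflux (2.88 to 3.30) and without wild-type gastric replicate 2 (2.50) or 3 (2.60).

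**Figure D4:**
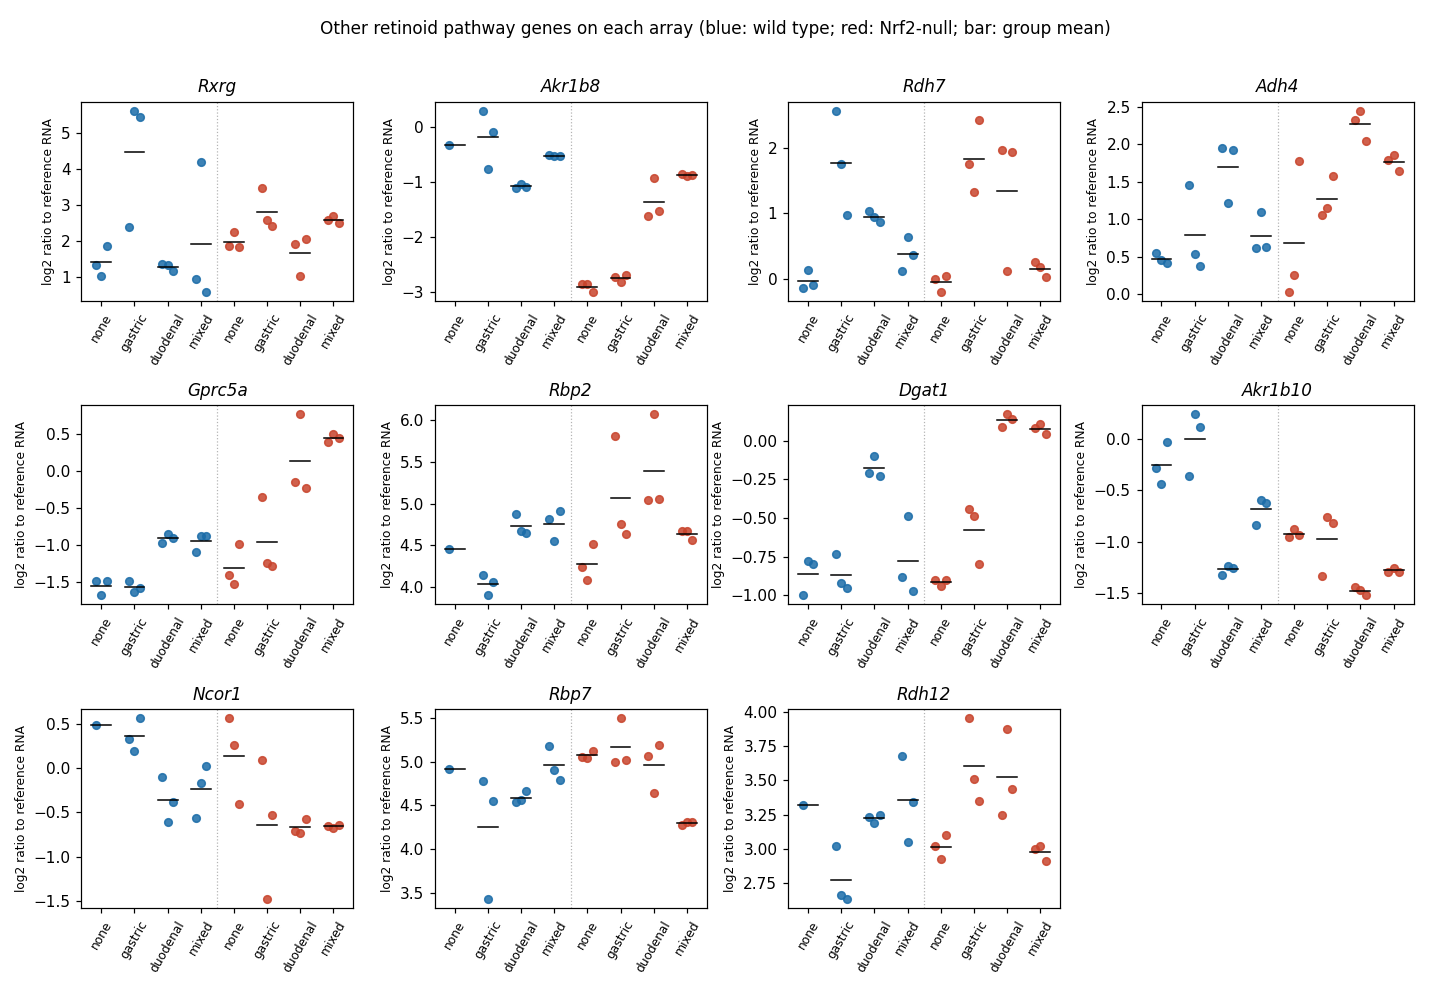
Level of 11 other retinoid pathway genes on each array, as a log2 ratio to the reference RNA, in the 4 reflux conditions of wild type (blue) and Nrf2-null (red), with group means as bars. Akr1b8 lies between -2.99 and -2.69 on the 6 Nrf2-null arrays of no and gastric reflux and between -1.62 and -0.85 on the 6 of duodenal and mixed reflux.

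The genes whose pattern over samples was most like that of a member were named for the 3 members of widest span, by Pearson correlation, as a description. All samples share the reference and the group structure, so the correlations follow the group means. For Aldh1a3 these were Arc (r = 0.962), Pthlh (r = 0.959) and Slc1a1 (r = 0.956), over 22 samples. Pthlh, the parathyroid hormone related protein of keratinocytes, had group means of 1.68 in wild type without reflux, 4.98 with duodenal reflux and 6.46 in Nrf2-null duodenal reflux. For Adh7 these were Arhgap24 and Taldo1 (r = 0.904 for both, over 20 samples) and Pias1 (r = 0.885, over 21). Taldo1, a pentose phosphate pathway enzyme, stood at 1.78 (1 array), 1.41 and 0.78 in the same 3 groups. For Aldh1a1 these were Abca5, Asb2 and Hdac11 (r = 0.918, 0.915 and 0.908, over 21 samples).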

How the data were processed

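RNA of 24 oesophagus samples (Cy5) was hybridised against a common reference RNA (Cy3). The deposited scanner files hold spot intensity on a linear scale and a log10 ratio, per the file headers of Agilent Feature Extraction (10.5.1.1 and build mm7 on 2 arrays, 10.7.3.1 and mm9 on 22); the submitters' processing notes name version 9.1. The authors' deposited value table was read as log2 ratios, since its slope on the log10 ratio was 2.68 to 3.14. The authors' normalisation is not stated in what was read here, and the table served as an alternative only.

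Intensities were background corrected (normexp, offset 50, outlier local backgrounds replaced by the array median), normalised by loess with 1639 control spots at weight 0, and flagged spots were left out (limma 3.58.1, R 4.3.3). Each gene took its brightest probe, well above background on all arrays of at least 1 group. Group means were fitted with lmFit and eBayes for 20541 genes in 22 samples (14 residual and 2.91 prior degrees of freedom), with Benjamini-Hochberg adjustment at 0.05. The procedure was tested on simulated data with independent noise and no scan day, slide or array effects. That test cannot bear on such effects. The number of arrays limits the precision.

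The members and gene lists were chosen with earlier results of these data known. All members are named, with at most 12 other called retinoid genes by size of difference (1 of these is not reported here), the 3 genes most like each of the 3 widest-ranging members, and Nfe2l2 and Nqo1 as a check of the labels. Scan day 1 and slides 1 and 3 held 1 group each and the other scan days and slides several. Wild type without reflux and with duodenal reflux shared neither, nor did wild type and Nrf2-null under gastric reflux. In no reflux condition did the genotypes share a slide. Scan day and slide were both tried as blocks.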

Additional observations from a re-analysis of the deposited data

Results flagged for a closer look

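Akr1b8 was the only gene named here whose genotype effect differed between conditions by the interaction test in limma. The duodenal effect in Nrf2-null mice exceeded that in wild type by 2.29 ± 0.38 (limma adjusted p = 0.026). The wild type without reflux enters this with 1 measured array, and the call was lost in 11 of 26 alternatives, with values from 2.07 to 2.50 and adjusted p from 0.00304 to 0.403. It was lost without any one wild-type duodenal array (2.27 to 2.30) or any one Nrf2-null array without reflux (2.24 to 2.31).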

How the results depend on the processing

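Over the 14 called differences of the members, 327 fits with another setting kept 243 calls, lost 84 and turned 0; for the other named retinoid genes 24 calls had 560 such fits, of which 416 kept the call, 143 lost it and 1 turned. Counts of members called between the genotypes under gastric reflux (2 of 9) were 1 with median centring, local backgrounds as read, the software's processed signals, slide as a random block or wild-type duodenal reflux as 1 sample, and 0 with scan day as a block or only the compared groups fitted. Under duodenal reflux (1 of 8) the count was 0 with median centring, local backgrounds as read, processed signals, no filter on dim probes, probes well above background on all arrays, slide as a random block, scan day as a block, only scan day 3, the replicate block, without Nrf2-null gastric replicate 1 and Nrf2-null duodenal replicate 2 (the 2 lowest in Cy5 over Cy3 of scan day 3), or wild-type duodenal reflux as 1 sample. It was 2 with outlier spots kept, the mean of all probes, slide as a fixed block, or only the compared groups. Averaged over 3 conditions (2 of 8) it was 0 with median centring, scan day as a block, or wild-type duodenal reflux as 1 sample, and without reflux (0 of 9) it was 2 with local backgrounds as read. With gastric reflux in wild type (0 of 9) it was 1 with median centring, the mean of all probes, Nrf2-null mixed reflux as 3 samples, or only the compared groups, 2 with local backgrounds as read and 3 without those 2 arrays of scan day 3, which also gave 1 for the interaction with gastric reflux (0 of 9). With duodenal reflux in wild type (5 of 8) it was 1 with median centring, 3 with slide as a random block, and 0 with scan day as a block or with wild-type duodenal reflux as 1 sample. In Nrf2-null mice (4 of 9) it was 1 with scan day as a block and 1 within scan day 3. Leaving out 1 array at a time gave 1 to 2 between the genotypes under gastric reflux, 0 to 1 under duodenal reflux, 0 to 2 with gastric reflux in wild type, 2 to 4 with duodenal reflux in wild type, 3 to 5 in Nrf2-null, and 0 to 2 for the gastric interaction. The values that turned were these: Rdh10 between the genotypes under duodenal reflux was -1.62 with slide as a fixed block, Crabp2 averaged over 3 conditions was 0.53 without the same 2 arrays, and Adh4 with duodenal reflux in wild type was -0.35 with scan day as a block. The cause was not tested in any of these.

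The replicate number as a block changed the calls of Adh7 between the genotypes under duodenal reflux (-1.27, adjusted p 0.0595) and of Rarb with duodenal reflux in wild type (-1.05, adjusted p 0.0509), and ended those of Gprc5a between the genotypes under duodenal reflux and of Rxrg and Adh4 in wild type. The numbers did not pair the samples: over 63 pairs with the same number the deviations correlated at -0.627 to 0.543 (median 0.0142), 16 of them over 0.1, and 5 of 21 samples correlated best with their own number. Slide as a fixed block could not be fitted for every comparison, and Cyp26b1 gave no value where wild-type duodenal reflux was missing. The 2 settings without those 2 arrays and with wild-type duodenal reflux as 1 sample were chosen after seeing the data. Few arrays per group, scan day and 3 arrays of low Cy5, among them wild type without reflux replicate 2, which was not left out with the other 2, limit these results.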
